A study of Mus musculus with 4 samples.

Results

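The cells described here are Lyve1-positive macrophages of mouse hindlimb digits pooled after tip amputation, 2623 of the 93602 cells kept after quality limits. A member had at least 1 unique molecular identifier (UMI, which counts a captured transcript once) of at least 4 of the 6 macrophage genes C1qa, C1qb, C1qc, Csf1r, Adgre1 and Mrc1, no UMI of Prox1 or Cd207, and at least 1 UMI of Lyve1. The members were thus chosen by the UMI counts of these 9 genes, whose values are given only as a description. Members numbered 617 with SAR131675, 524 with the control diet, 764 with LNR and 718 with the sham operation. The 1096 cells that passed the same gate with no Lyve1 UMI (250, 166, 368 and 312 in the same order) are called Lyve1-negative macrophages, and no cell barcode was shared by members of different libraries.

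LYVE1 is a receptor for hyaluronan, a polysaccharide of the extracellular matrix, and is best known as a marker of lymphatic vessels. Many tissues also hold macrophages that carry LYVE1. They lie along blood vessels and in loose connective tissue, express genes for scavenging and for clearing dead cells together with FOLR2, CD163 or TIMD4, and as a rule have little MHC class II, the molecule that presents antigen to helper T cells. Macrophages that descend more recently from blood monocytes tend to carry CCR2, the receptor that draws monocytes out of the marrow, and more MHC class II.

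Single cells in droplets (scRNA-Seq by the 10x Genomics 3' method) were read from digits of female C57BL/6 mice (C57BL/6J in the study's methods) aged 6 to 8 weeks, whose terminal phalanx (P3) had been amputated, with hindlimb digits 2 to 4 of 10 mice pooled into each of the 4 libraries. In the diet experiment 1 library came from mice fed chow with SAR131675, an inhibitor of the lymphatic growth factor receptor VEGFR3, at 30 mg/kg for 8 days by the labels, and 1 from mice on the control diet. In the other experiment the inguinal and popliteal lymph nodes were removed on one side (LNR) and the opposite limb had a sham operation, so LNR and sham digits came from limbs of animals that carried both operations. By the study's methods P3 was amputated on digits 2 and 4, and digits 2 to 4 were harvested at proximal P2, the next phalanx. The pools thus held tissue beyond the tip, and by that wording may have held an unamputated digit. The sources differ on the day after amputation at which the digits were taken, so no day is given here. With 1 library per condition, each a labelled batch of its own, batch and condition cannot be told apart. No difference in expression or share between SAR131675 and control diet or between LNR and sham was tested, and intervals cover counting error only.

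Total UMIs were 585284877 for SAR131675, 448276501 for the control diet, 168507188 for LNR and 175998346 for sham, and the median member held 8044, 7899.5, 4279.5 and 4005 UMIs. Lyve1-negative macrophages were shallower, with medians of 6130, 6023.5, 3752.5 and 3010 UMIs, so results that depend on detection were repeated after thinning. Cells with fewer than 3000 UMIs were left out, the others were thinned to 3000 UMIs, and gate and class were set again. Gated cells then numbered 713, 584, 708 and 568, against 867, 690, 1132 and 1030 before. Thinned results thus describe the deeper cells only. Markers of other cells were present in the members. At least 3 of 5 keratinocyte markers had a UMI in 53.16% of SAR131675 members against 26.15% of control diet members, and in 21.99% of LNR and 21.87% of sham members. Of the same markers, the summed level was 2705, 1310, 4843 and 5129 counts per 1000000 UMIs (CPM) in members, below the 11480 to 19370 CPM of all cells outside the gate. Other lists were uneven. Of neutrophil markers, Ly6g had 0 UMIs in members of all 4 libraries. S100a8 stood at 593.7 and S100a9 at 562.1 CPM in sham members, above the 332.2 and 316.9 CPM of sham cells outside the gate. The richest sham member held 80.09% of these S100a8 UMIs, and that for S100a9 held 76.71%. In the other 3 libraries both genes were below the cells outside the gate. Csf3r, the G-CSF receptor of neutrophils and monocytes, was above the cells outside the gate in all 4 libraries, at 13.15, 12.34, 6.104 and 8.66 CPM against 1.695, 1.133, 2.639 and 1.832 CPM. Of dendritic cell markers Xcr1 was at 0 and Zbtb46 at 13.15, 13.02, 2.442 and 1.783 CPM, above cells outside the gate in each library. Of osteoclast markers Calcr was at 0 and Ctsk, a protease that macrophages also express, at 81.25 to 109.5 CPM against 63.5 to 98.27 CPM outside. Atp6v0d2 was above the cells outside the gate in each library, at 6.769, 6.625, 4.639 and 3.821 CPM against 1.241, 1.203, 1.228 and 1.095 CPM. Dcstamp, at 0 to 0.967 CPM, was below them in each library. The lymphatic genes Mmrn1, Flt4, Reln and Ccl21a had 0 to 11, 1 to 8, 0 to 14 and 5 to 80 UMIs per library, and Pdpn, which macrophages can also express, stood at 22.63, 26.04, 20.26 and 14.52 CPM against 13.42, 13.94, 19.2 and 15.98 CPM outside the gate. The part of these other transcripts in the results was not tested.

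The genes of the rule behaved as the gate requires. Lyve1 stood at 2176 CPM in SAR131675 members, 2622 in control diet members, 1616 in LNR members and 1521 in sham members. A member held a median of 10, 14, 5.5 and 5.5 Lyve1 UMIs, and the richest cells held 160, 223, 58 and 70, so the class spans a wide range of Lyve1. C1qa, a subunit of the complement starter C1q, was at 3778, 3835, 3385 and 3239 CPM in members. Mrc1, the mannose receptor CD206, was at 2614, 2803, 1508 and 1402 CPM. All 6 gate genes were found together in 78.28%, 79.77%, 62.17% and 59.33% of members.

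Lyve1 UMIs elsewhere had a clear second holder. Members held 72.37%, 71.24%, 77.0% and 74.56% of the Lyve1 UMIs of their libraries, and cells with a UMI of Prox1, the transcription factor of lymphatic endothelium, held 21.12%, 24.12%, 16.85% and 17.74%. Of cells outside the gate with 3 keratinocyte markers, 2.507%, 2.079%, 1.938% and 2.353% had a Lyve1 UMI, at median depths of 12464, 12026, 8674 and 8439 UMIs. After thinning these shares were 1.05%, 1.15%, 0.5% and 1.1%. Prox1 cells were not removed from this class. It held 2645, 1597, 646 and 548 Lyve1 UMIs and Prox1 cells 3284, 3886, 1448 and 1421, where all cells outside the gate held 4295, 4633, 1977 and 2038. With SAR131675, the control diet and LNR the groups thus shared cells, and the shares are no measure of cells that lack Lyve1. The share of members that free Lyve1 RNA brought over the edge of the class was not tested.

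Cells on either side of the Lyve1 edge differed in expression. Members with exactly 1 Lyve1 UMI numbered 79, 42, 123 and 114, and had Folr2 at 493.9, 588.8, 538.4 and 473.5 CPM and Cd74 at 844.2, 1725, 664.8 and 486.6 CPM. Just outside, cells with no Lyve1 UMI had Folr2 at 292.3, 225.6, 344.7 and 330.1 CPM and Cd74 at 5203, 6445, 2998 and 3190 CPM. At the other edge, 28, 24, 46 and 54 members had exactly 4 gate genes, and 10, 12, 11 and 25 cells with a Lyve1 UMI had 3 and stayed out. A further 19, 14, 16 and 24 gated cells were left out for a UMI of Prox1 or Cd207.

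The comparison of Lyve1-positive with Lyve1-negative macrophages asks what else divides macrophages of the same tissue once Lyve1 has split them. UMIs were summed per library and class, and the 8 sums were fitted with edgeR's quasi-likelihood test with the library as a block. Of 12767 genes tested, 615 were higher in Lyve1-positive cells (4.82% of all genes) and 655 were lower (5.13%) at an adjusted p under 0.05. Below, a difference is edgeR's log2 fold change, Lyve1-positive minus Lyve1-negative, its SD is that of the 4 differences taken library by library (n = 4), and p is edgeR's value adjusted over all genes tested. The 4 libraries come from different conditions, so this spread holds treatment as well as sampling. LNR and sham digits came from opposite limbs of animals with both operations. These libraries may thus share mice, while the fit takes them as independent. Without the SAR131675 library 392 genes were higher and 416 lower, and without the control diet library 366 and 426. DESeq2 called 371 and 541, and leaving the library out of the model left 33 and 62.

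Genes of the resident macrophage program were mostly higher in Lyve1-positive cells. Of the 25 genes of that list, 19 rose, 1 fell and 5 did not pass, and the median difference was 0.83 against 0.0013 over all genes tested. The list median stayed between 0.63 and 0.88 in all alternatives run. With cells of at least 3000 UMIs thinned to 3000 UMIs, 19 genes were again called higher and 1 lower. Without the library in the model 11 were higher, and leaving out 1 library left 17 to 20.

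Among receptors of that list, Folr2, a folate receptor, was at 798.9, 766, 831.6 and 770.5 CPM in the members of the SAR131675, control diet, LNR and sham libraries. In Lyve1-negative cells it was at 292.3, 225.6, 344.7 and 330.1 CPM, so the classes did not overlap (difference 1.39, SD 0.24, edgeR adjusted p = 4.99e-05). Timd4, a receptor for phosphatidylserine on dying cells and a marker of long-lived macrophages, was at 99.6, 106.5, 76.18 and 68.01 CPM against 17.4, 12.54, 17.21 and 11.72 CPM. Its difference of 2.49 (SD 0.38, edgeR adjusted p = 2.14e-05) was the highest of the genes named by the size rule, and 255 of 617, 219 of 524, 217 of 764 and 181 of 718 members carried at least 1 UMI. Cells without a Timd4 UMI may still express it, since detection at these depths is incomplete.

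Cd163, the receptor for hemoglobin bound to haptoglobin, was at 669.9, 680.1, 534.9 and 522.1 CPM against 405.7, 425.3, 298.6 and 339.2 CPM, a smaller difference (0.68, SD 0.093, edgeR adjusted p = 0.000261). Vsig4, a complement receptor of tissue macrophages, was at 344.2, 351.6, 327.4 and 255.2 CPM against 126.6, 139.7, 129.1 and 85.93 CPM (1.39, SD 0.11, edgeR adjusted p = 1.4e-05). Stab1, a scavenger receptor, was higher by 1.00 (SD 0.099). Ednrb, the endothelin B receptor, was at 249.7, 251.5, 255.6 and 236.9 CPM against 67.22, 42.98, 69.85 and 89.84 CPM (1.85, SD 0.47, edgeR adjusted p = 0.000117). In each of these 4 receptors the lowest Lyve1-positive sum lay above the highest Lyve1-negative sum.

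Secreted products and enzymes of the program moved the same way. F13a1, the A chain of coagulation factor XIII, was at 3064, 3238, 2023 and 1901 CPM in members against 1285, 1050, 772.9 and 786.4 CPM (1.35, SD 0.17, edgeR adjusted p = 1.4e-05). Fcna, a ficolin that starts the lectin pathway of complement, was at 120.5, 125.9, 131.4 and 133.7 CPM against 28.21, 25.07, 28.35 and 35.81 CPM (2.09, SD 0.18). Ltc4s, which makes leukotriene C4, was at 240.8, 272.5, 268.1 and 242 CPM against 69.62, 52.83, 80.48 and 57.94 CPM (1.93, SD 0.29). Neither gene's classes overlapped. Ccl24, an eosinophil chemokine, was higher by 1.41 (SD 0.32), Cbr2 by 1.13, Gas6, a ligand that bridges dying cells to MERTK and AXL, by 0.83, and Pf4, a chemokine, by 0.82. The transcription factor Maf was higher by 0.72 (SD 0.14). Cd209d, a lectin, was the member that fell (-0.54, SD 0.19, edgeR adjusted p = 0.00359), and Igf1, a growth factor, was at 512.3, 503.5, 335.7 and 301.1 CPM against 509.5, 447.7, 334.1 and 352.8 CPM with no call (-0.044, edgeR adjusted p = 0.812).

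**Figure D1:**
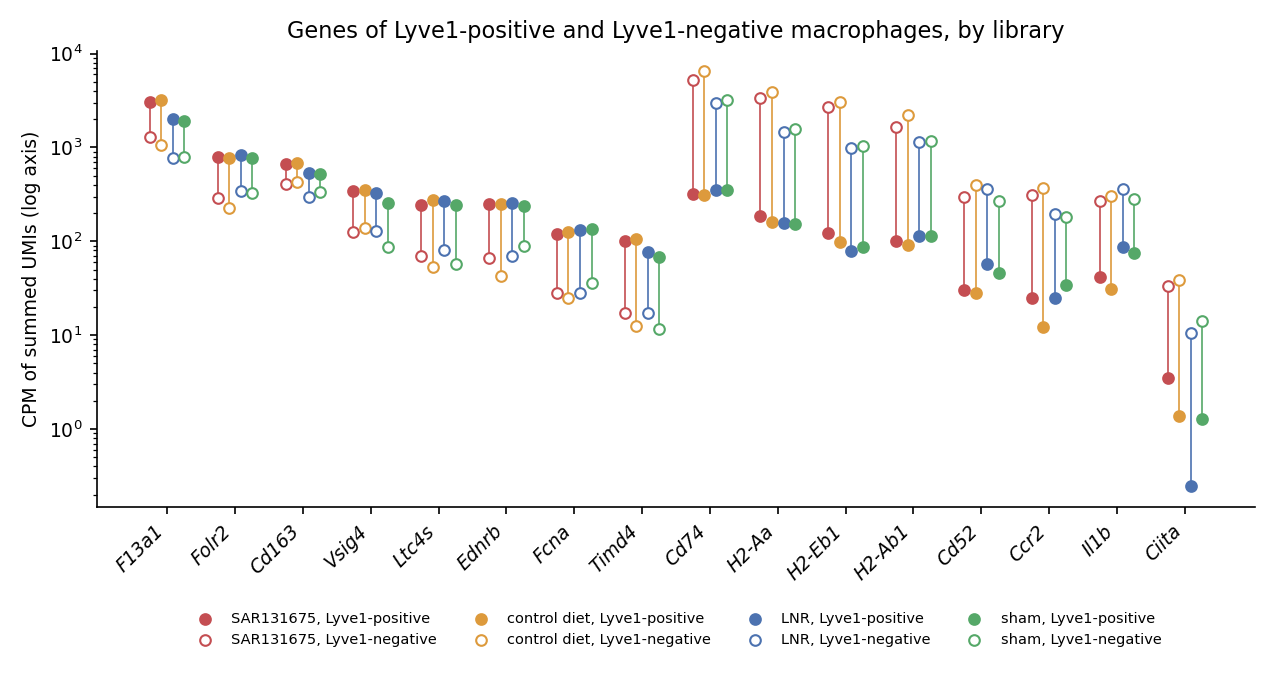
Level of 16 genes in CPM of summed UMIs (log axis) in Lyve1-positive (filled) and Lyve1-negative (open) macrophages of the 4 libraries, with a line joining the 2 classes of a library. In every library the 8 genes from F13a1 to Timd4 are higher in the filled points and the 8 genes from Cd74 to Ciita are lower.

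MHC class II genes differed most as a group. Of 9 genes tested in that list of 10, 8 fell and none rose, and the median difference was -3.71. H2-Aa, the alpha chain of the molecule I-A, was at 187.4, 160.6, 155 and 152.3 CPM in members and at 3393, 3886, 1469 and 1559 CPM in Lyve1-negative cells (-3.88, SD 0.65, edgeR adjusted p = 1.69e-05). H2-Ab1, its beta chain, was at 99.99, 90.92, 114.8 and 113.1 CPM against 1660, 2227, 1143 and 1174 CPM (-3.87, SD 0.62). H2-Eb1, the beta chain of I-E, was at 122.2, 97.32, 78.62 and 86.85 CPM against 2680, 3086, 995.1 and 1034 CPM (-4.21, SD 0.67). All 4 libraries showed the gap for each chain, and no Lyve1-positive sum reached the lowest Lyve1-negative sum.

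The helpers of class II followed the chains. Cd74, the invariant chain that guides class II through the cell, was at 316.6, 308.9, 355 and 349.5 CPM against 5203, 6445, 2998 and 3190 CPM (-3.71, SD 0.64, edgeR adjusted p = 1.77e-05). H2-DMa and H2-DMb1, the subunits of the peptide editor H2-DM, were lower by -2.30 and -3.11 on the log2 scale. Ciita, the transactivator that drives class II transcription, was low in members, at 3.481, 1.371, 0.2442 and 1.274 CPM against 33.01, 38.5, 10.63 and 14.32 CPM (-3.92, SD 0.87, edgeR adjusted p = 0.000171). H2-Ob, a subunit of the H2-DM inhibitor H2-O, was at 2.708, 2.741, 2.197 and 3.056 CPM against 5.402, 4.477, 1.519 and 2.604 CPM and was not called (-0.36, edgeR adjusted p = 0.694), and H2-Oa was too low to test. In every alternative run, each class II gene that could be tested fell, apart from H2-Ob and H2-Oa.

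Class II promoters are known for a short shared element, the Y box, an inverted CCAAT site bound by the factor NF-Y, which is read together with CIITA. The upstream sequences of the 2 chain genes that could be matched are shown because class II had the lowest median difference of the 16 lists. In the 250 bases before each gene start of the RefSeq promoters of the mouse build GRCm38.p6, 7 of the 10 class II genes were matched, and the letters CTGATTGG (or CCAATCAG on the other strand) were searched as an exact match on both strands. The match was present in 3 of the 7, H2-Aa, H2-Eb1 and H2-Oa, and in 3.83% of all 32851 promoters of that length. An exact match is narrow, and a gene without it may still hold an inverted CCAAT site. The shorter letters TGATTGG stand upstream of H2-DMb1, H2-DMb2 and H2-Ob, and their share of all promoters was not counted. H2-Ab1 and Ciita were not matched. Entries on the chromosome of Cd74 were left out for the class II genes, so Cd74 was not searched. The H2-Aa sequence lies at chr17:34287824-34288073 on the minus strand and the H2-Eb1 sequence at chr17:34305617-34305866 on the plus strand, both upstream of the first exon, and capitals mark the searched letters, which begin 51 and 62 bases before the gene start.
H2-Aa: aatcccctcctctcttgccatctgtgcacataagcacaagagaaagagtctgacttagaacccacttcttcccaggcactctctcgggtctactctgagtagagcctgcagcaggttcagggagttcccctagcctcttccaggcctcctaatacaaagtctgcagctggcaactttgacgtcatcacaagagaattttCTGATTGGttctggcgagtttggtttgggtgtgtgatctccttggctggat
H2-Eb1: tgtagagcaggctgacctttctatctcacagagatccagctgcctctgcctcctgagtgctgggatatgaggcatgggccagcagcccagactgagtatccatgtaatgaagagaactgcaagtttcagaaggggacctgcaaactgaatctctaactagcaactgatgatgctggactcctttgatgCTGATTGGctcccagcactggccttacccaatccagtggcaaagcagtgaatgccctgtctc
These matches describe the sequence only, and the data hold no measure of factor binding.

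Genes of the monocyte-derived program were lower or not called, with 1 exception. Of 11 tested, 4 fell and 1 rose (median difference -0.92). Ccr2 was at 24.75, 12.34, 24.9 and 33.88 CPM in members against 313.9, 371.6, 195.9 and 180.3 CPM (-3.47, SD 1.1, edgeR adjusted p = 0.000193). Cd52, a small glycoprotein of lymphocytes and monocytes, was at 29.98, 28.33, 56.64 and 45.59 CPM against 295.9, 395.8, 363.9 and 268.9 CPM (-3.10, SD 0.58). Both genes separated the classes fully. Itgal, the alpha subunit of the integrin LFA-1 (-2.31), and F10, coagulation factor X (-3.57), also fell, S100a4, a calcium-binding protein, rose slightly (0.20, SD 0.065, edgeR adjusted p = 0.0225), and Ly6c2, a marker of classical monocytes, stood at 0 to 2.547 CPM against 1.2 to 6.268 CPM with no call (edgeR adjusted p = 0.0824). The S100a4 call was lost without SAR131675 (edgeR adjusted p = 0.121), LNR (0.108) or sham (0.129) and without cells that carried 3 markers of another type (0.707), and the Itgal call without LNR (0.0623).

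**Figure D2:**
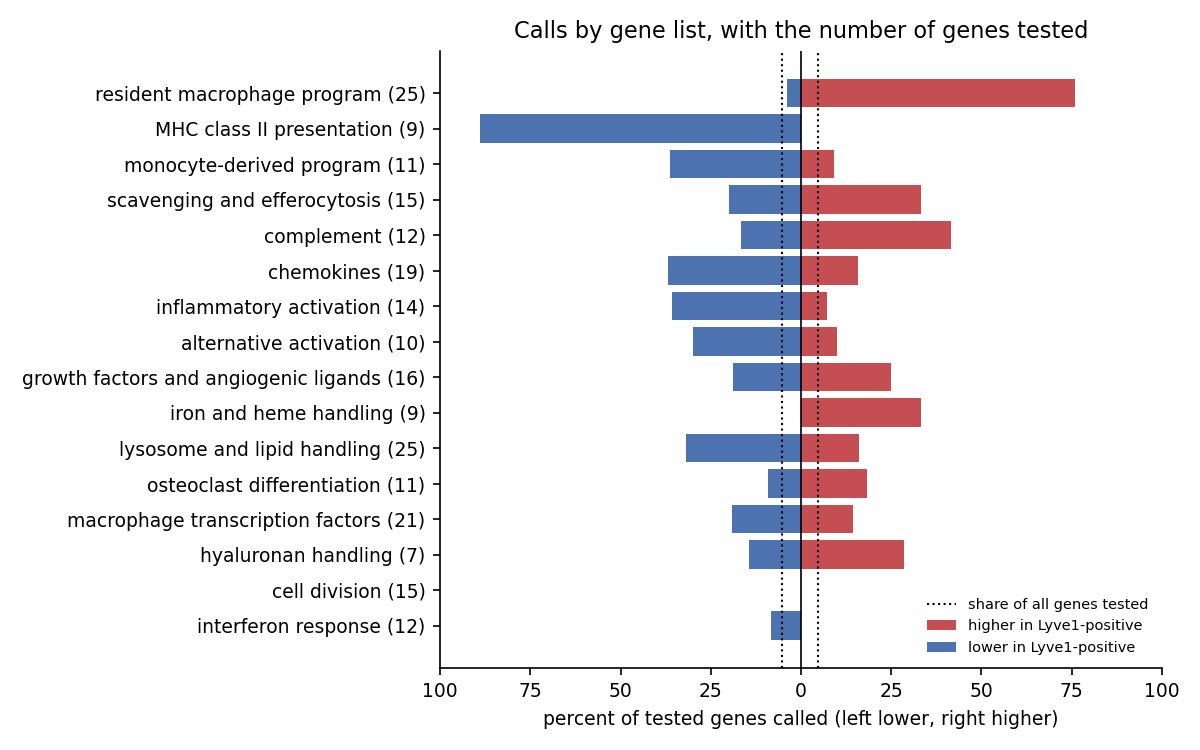
Percent of the tested genes of each of 16 lists called higher (right) or lower (left) in Lyve1-positive than in Lyve1-negative macrophages, with the number tested in parentheses and the share over all genes as dotted lines (4.82% and 5.13%). The resident macrophage program reaches farthest to the right and MHC class II presentation farthest to the left.

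Uptake and complement genes were split. In the scavenging and efferocytosis list 5 of 15 rose and 3 fell. The number that rose was 3 with DESeq2, 3 without SAR131675, the control diet or sham and 2 after thinning, as the Fc receptor Fcgr3 and the scavenger receptor Msr1 were lost under each of these, Msr1 with edgeR adjusted p of 0.174, 0.152 and 0.127 and Fcgr3 with 0.118, 0.123 and 0.166 when those 3 libraries were left out in turn. The fall of Fcgr4 was lost without SAR131675 (edgeR adjusted p = 0.087), the control diet (0.0684) or LNR (0.0681). Cd36, a receptor for oxidized lipid, was at 777.8, 705.7, 668 and 572.3 CPM against 348.1, 319.6, 333.6 and 251.3 CPM (1.09, SD 0.083, edgeR adjusted p = 1.9e-05), and the scavenger receptor Colec12 was higher by 1.29 (SD 0.39). Mertk and Axl, both receptors for Gas6, went in opposite directions. Mertk was at 149.5, 191, 57.13 and 55.02 CPM against 112.2, 114.6, 37.96 and 26.69 CPM (0.63, SD 0.26, edgeR adjusted p = 0.00508, and 0.0579 after thinning), and Axl was at 13.73, 19.19, 45.41 and 38.46 CPM against 46.81, 68.05, 72.38 and 51.43 CPM (-1.15, SD 0.73, edgeR adjusted p = 0.0123). In the complement list 5 of 12 rose and 2 fell. C4b, a component of the classical pathway, was at 171, 164.3, 189 and 155.6 CPM against 64.22, 65.36, 90.6 and 100.9 CPM (1.06, SD 0.35, edgeR adjusted p = 0.00104), and C3, on which the pathways converge, fell (-1.70, SD 0.70). Itgax, the integrin CD11c of dendritic cells and some macrophages, was at 0.3868, 0.4569, 0.7325 and 0.2547 CPM against 13.2, 69.84, 12.65 and 4.557 CPM (-5.49, SD 1.5, edgeR adjusted p = 0.000171).

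Inflammatory and chemokine genes were more often lower. In the inflammatory list 5 of 14 fell and 1, the endotoxin receptor Tlr4, rose (median -0.57). Il1b, the cytokine interleukin-1 beta, was at 41.77, 31.07, 85.94 and 74.88 CPM against 267.1, 307.1, 358.9 and 280.6 CPM (-2.49, SD 0.64, edgeR adjusted p = 0.000104), and Nlrp3, the sensor of the inflammasome that matures it, was lower by -1.61 (SD 0.40). Of 19 chemokines and receptors 7 fell and 3 rose (median -0.74). Ccl8, a monocyte attractant, was at 543.1, 530.9, 310.1 and 295.2 CPM against 1330, 794.2, 1040 and 781.9 CPM (-1.29, SD 0.49), whereas Ccl6, Ccl9 and the receptor Ccr1 rose by 0.80, 0.66 and 1.03. Some calls rested on few cells, since 96.72% of the 61 Ccl17 UMIs of Lyve1-negative control diet cells were in 1 cell. In the alternative activation list Tgfbi rose (0.41) and Il10, Mgl2 and Socs3 fell, of 10 tested. Of 12 interferon response genes, Rsad2 alone was called, lower, but 4 were lower after thinning, and 4 were lower and 1 higher without cells that carried 3 markers of another type. Leaving out single libraries ended the calls of Tnf (edgeR adjusted p = 0.134 without SAR131675, 0.138 without the control diet and 0.0695 without sham), Cxcr4 (0.064 without the control diet), Il10 (edgeR adjusted p = 0.0762 without SAR131675 and 0.0523 without the control diet), Socs3 (0.0914 and 0.0694), Tlr4 (0.0655 without SAR131675), Cxcl13 (0.054 without the control diet) and Rsad2 (0.0697 without SAR131675 and 0.071 without LNR).

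Ligands, lipid genes and bone genes showed both directions. Among 16 growth factors and angiogenic ligands, Grn (0.57), Pdgfc (0.79), Bmp2 (1.04) and Igfbp4 (0.40) rose, and Vegfa (-1.21), Pdgfb (-0.94) and Areg (-1.68) fell. Of the ligands of VEGFR3, the target of SAR131675, Vegfc was too low to test, and Vegfd was at 3.288, 1.828, 6.104 and 4.075 CPM against 1.801, 5.372, 5.568 and 1.302 CPM (edgeR adjusted p = 0.909). Among 25 lysosome and lipid genes 4 rose and 8 fell. Cd68 was higher by 0.51 and Trem2 by 0.31, while Lgals3, galectin-3, was at 1129, 934.6, 969 and 993.6 CPM against 1620, 1778, 1688 and 1564 CPM (-0.76, SD 0.18, edgeR adjusted p = 0.000237) and Gpnmb was lower by -2.18. Spp1, osteopontin, also fell (-2.53, SD 1.6), with 55.85% of its 1436 UMIs in Lyve1-negative LNR cells held by 1 cell. Of the genes called in these lists, the calls lost without 1 library were those of the lipid genes Fabp4 (edgeR adjusted p = 0.0528 without the control diet and 0.0808 without sham), Plin2 (0.0784 without LNR and 0.103 without the control diet) and Abcg1 (0.0933 without the control diet and 0.0511 without sham), and of Vegfa (edgeR adjusted p = 0.0729 without LNR), Bmp2 (0.0707 without sham), Spp1 (0.0505 without the control diet), Igfbp4 (0.124 without SAR131675 and 0.0961 without the control diet) and Trem2 (0.0957 without SAR131675, 0.0676 without the control diet and 0.112 without sham). Without cells that carried 3 markers of another type Fabp4 changed direction (0.48, edgeR adjusted p = 0.693) and Trem2 was not called (0.097, edgeR adjusted p = 0.586).

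Osteoclasts arise from the same lineage by RANK signaling, so their genes were listed. Tnfrsf11a, which encodes RANK, was at 172.1, 165.2, 81.3 and 76.67 CPM against 130.8, 141.5, 50.11 and 48.83 CPM (0.44, SD 0.22, edgeR adjusted p = 0.0182), and the transcription factor Mitf rose by 0.50 (SD 0.097). Acp5, the bone phosphatase TRAP, fell (-0.74, SD 0.59, edgeR adjusted p = 0.0449), the protease Ctsk was not called (0.036, edgeR adjusted p = 0.95), and 11 of 19 listed genes could be tested. Of 21 transcription factors tested, 3 rose, among them Klf2 (0.73) and Tcf4 (0.33), and 4 fell, namely Runx3 (-3.92), Spic, Cebpb and Bhlhe40. For hyaluronan, the ligand of LYVE1, the degrading enzyme Hyal2 (0.97, SD 0.16) and Cemip2 (0.58) rose, neither of which was called after thinning (edgeR adjusted p = 0.221 and 0.186), and another hyaluronan receptor, Cd44, fell (-0.61, SD 0.38, edgeR adjusted p = 0.0118), of 7 tested. In the iron and heme list Tfrc, Blvra and Blvrb rose, of 9 tested. None of 15 cell division genes was called by edgeR or by DESeq2, and 0 of 15 had an unadjusted edgeR p under 0.05. After thinning, however, 2 of 13 were lower, with a median of -0.61 against -0.049 before. The calls of Tnfrsf11a, Acp5, Cemip2, Tcf4, Spic, Cebpb, Bhlhe40, Tfrc, Blvra and Cd44 were each lost without at least 1 library. For Tnfrsf11a the edgeR adjusted p was 0.058 without SAR131675, 0.073 without LNR, 0.0711 without sham and 0.14 after thinning, for Acp5 it was 0.0826, 0.131 and 0.124 without SAR131675, LNR and the control diet, and for Cd44 0.0581 without SAR131675. Bhlhe40 changed direction after thinning (0.17).

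By size among called genes with at least 200 UMIs over the 8 sums, the rule genes and markers of other cells aside, the 12 highest were Timd4, Gm15270, Fcna, Ltc4s, Ednrb, Rgs7bp, Nherf2, Cmah, Aqp1, 1110019D14Rik, Stac2 and Tmod1, from 2.49 down to 1.47. The call of 1110019D14Rik was lost with DESeq2 (adjusted p = 0.0538), after thinning (edgeR adjusted p = 0.269) and without SAR131675 (0.0763) or the control diet (0.0548), and that of Stac2 after thinning (0.0652). Aqp1, a water channel, was at 572.3, 596, 516.4 and 422.8 CPM against 178.9, 158.5, 182.7 and 176.4 CPM (1.55, SD 0.28, edgeR adjusted p = 4.99e-05). Cmah, an enzyme of sialic acid synthesis, was at 131.1, 127.7, 58.6 and 52.21 CPM against 46.81, 20.59, 19.23 and 23.44 CPM (1.65, SD 0.63). The classes of both genes stood apart in each library.

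Under the same limits the 12 lowest were Mmp12, Ear2, Il7r, H2-Eb1, Tnip3, Napsa, H2-Aa, H2-Ab1, Cd74, Ccr2, Bcl2a1d and Grk3. Ear2, a ribonuclease, was at 0.7736, 0.2285, 0.2442 and 0 CPM in members against 73.82, 49.25, 28.35 and 27.99 CPM. Il7r, the interleukin-7 receptor, was at 0.7736, 2.056, 0.9766 and 0 CPM against 33.61, 87.75, 19.23 and 9.114 CPM. Mmp12, the macrophage elastase, had 5, 0, 4 and 0 UMIs in members and 49, 404, 40 and 8 in Lyve1-negative cells, of which 1 control diet cell held 70.3%. Sums at 0 make the fitted size of these 3 depend on the prior count, so no fold is given. Without upper limits on genes and UMIs Mmp12 was not called (edgeR adjusted p = 0.0567).

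Of 47 tested markers of other cell types 11 were called lower in Lyve1-positive cells (23.4%, beside 5.13% over all genes) and 0 higher. Of 5 mast cell markers Cpa3, Cma1, Mcpt4 and Tpsb2 were lower in Lyve1-positive cells. Dsp, Pdgfra, Pecam1, Pdpn, Csf3r, Flt3 and Cd79b were the call of their lists, each lower. No T cell marker had UMIs enough to test.

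At equal depth the classes differed in how many cells carried a gene. After thinning, 484, 434, 482 and 417 members and 229, 150, 226 and 151 Lyve1-negative cells remained. Folr2 had a UMI in 85.74%, 84.33%, 85.89% and 85.13% of members and in 48.91%, 48.67%, 56.19% and 57.62% of Lyve1-negative cells, against 0.1% to 0.2% of cells with keratinocyte markers. Timd4 had a UMI in 27.69%, 26.27%, 23.03% and 20.38% of members and in 6.55%, 6.0%, 4.425% and 1.325% of Lyve1-negative cells. Ccr2 ran the other way, with 2.893%, 2.535%, 4.149% and 5.036% against 24.02%, 18.67%, 19.47% and 17.88%. The intervals of the 2 classes did not overlap in any library for these 3 genes.

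Most members carried no class II UMI at that depth. None of the 4 genes H2-Aa, H2-Ab1, H2-Eb1 and Cd74 had a UMI in 79.55%, 76.27%, 78.22% and 82.73% of members, against 45.41%, 47.33%, 56.19% and 54.97% of Lyve1-negative cells. A total of 10 or more such UMIs was found in 5.165%, 3.917%, 4.772% and 4.317% of members and in 34.06%, 34.0%, 24.78% and 25.17% of Lyve1-negative cells. Many cells classed as Lyve1-negative thus had no class II UMI at this depth, where a missing UMI does not show that a gene is silent. How many of them were members that had lost their Lyve1 UMIs in thinning was not tested.

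Levels of some genes also followed the amount of Lyve1 per thinned cell, from the Lyve1-negative bin of 0 UMIs through the bins of members. From 0 to 1, 2 to 3, 4 to 7 and 8 or more Lyve1 UMIs per thinned cell, F13a1 rose in the SAR131675 library from 1741 to 2657, 2820, 3535 and 3796 CPM, and in the sham library from 1042 to 1707, 1917, 2371 and 3180 CPM. Timd4 rose at each step in all 4 libraries, from 24.75 to 215.7, 24.44 to 167.6, 17.7 to 128.4 and 4.415 to 167.9 CPM between the end bins. Folr2 went from 414.8, 337.8, 473.5 and 540.8 CPM at no Lyve1 UMI to 1108, 976.9, 1191 and 1260 CPM at 8 or more, with a dip between 1 and 2 to 3 UMIs in the control diet and LNR libraries. The 4 class II genes together fell from 9172, 10780, 6277 and 6691 CPM to 131.4, 283.2, 241 and 284.7 CPM, but not at every step, since 2 to 3 UMIs stood above 1 UMI in the SAR131675 and sham libraries. Cd163 and Ccl24 were higher with 1 Lyve1 UMI than with none in all 4 libraries, and uneven beyond that. Over the 5 bins Cd163 was at 564.8, 636.4, 770.6, 717 and 649 CPM with SAR131675, 540, 775.4, 559.8, 783.5 and 751.4 CPM with the control diet, 380.5, 624.4, 495.6, 693.3 and 569.8 CPM with LNR and 454.7, 616.2, 676.7, 669.6 and 698.3 CPM with sham. Ccl24 was at 137.2, 262.9, 398.2, 320 and 369.4 CPM with LNR and rose at every step with sham, from 134.7 to 212.1, 376.7, 397.7 and 474.5 CPM. In CPM, the largest difference between neighbouring bins in class II came between those of 0 and 1 Lyve1 UMI in all 4 libraries. Among members alone, which start at 1 UMI, Timd4 began at 45.45, 57.97, 51.64 and 20.2 CPM in the SAR131675, control diet, LNR and sham libraries. Class II began there at 757.6, 2594, 2343 and 1051 CPM. Cells of a bin share a library, and these values are a description with no test.

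**Figure D3:**
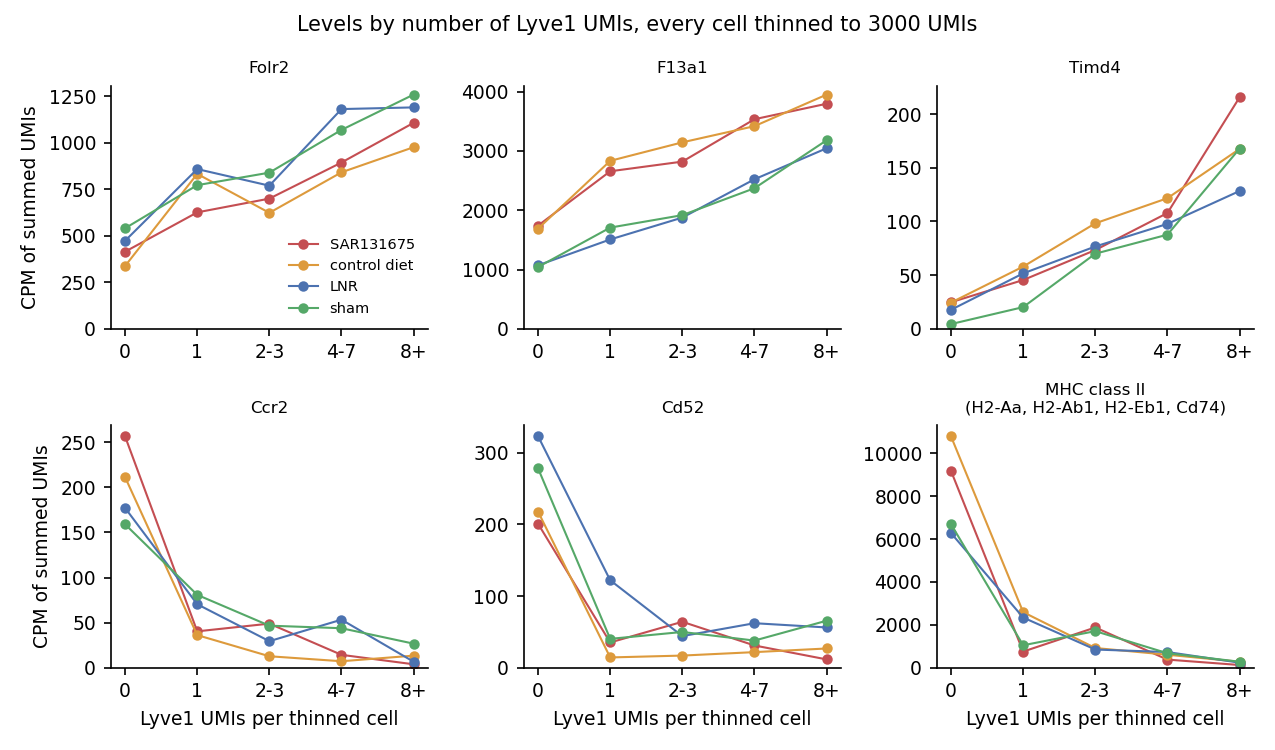
Level (CPM of summed UMIs, linear axes from 0) of 5 genes and of the sum of 4 class II genes against the number of Lyve1 UMIs per cell, with 1 line per library. Cells with fewer than 3000 UMIs were left out and the others thinned to 3000 UMIs. Folr2, F13a1 and Timd4 end at 8 or more UMIs above where they start, and Ccr2, Cd52 and class II end below.

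Members as a share of kept cells differed between the diets by no more than counting error, but the value moved with the denominator. They were 2.122% of kept cells with SAR131675 (95% exact binomial interval 1.959 to 2.294) and 2.181% with the control diet (2.0 to 2.373), a log2 ratio of -0.039 (-0.21 to 0.13). When gated macrophages that carried 3 markers of another type were removed, and no other cells, the shares were 0.9473% and 1.532% (log2 ratio -0.69). When cells with 3 keratinocyte markers were removed outside the gate, and no macrophages, they were 11.22% and 8.151% (0.46). When such cells were removed inside and outside the gate alike, a setting added after the data were seen, they were 5.713% and 6.192% (-0.12, counting interval -0.34 to 0.11). The first 2 of these settings treat macrophages and other cells unequally, and they gave opposite directions. LNR members were 3.853% (3.59 to 4.131) and sham members 3.474% (3.228 to 3.732) of kept cells, a log2 ratio of 0.15 (0.00072 to 0.30). It became -0.017 (-0.17 to 0.13) with cells with 3 keratinocyte markers removed outside the gate and -0.018 (-0.19 to 0.15) with them removed inside it too. After thinning it was 0.27 (0.079 to 0.46) and with 5 or more gate genes 0.17 (0.019 to 0.33). With at least 3 Lyve1 UMIs it was 0.13 (-0.045 to 0.31). For the diet pair the thinned ratio was -0.18 (-0.37 to 0.014).

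Within the macrophage gate, Lyve1-positive cells were 71.16% (68.02 to 74.16) with SAR131675 and 75.94% (72.57 to 79.09) with the control diet, a difference of -4.78 percentage points (-9.12 to -0.35). Thinned, the shares were 67.88% and 74.32% and the difference -6.43 (-11.31 to -1.46). LNR and sham stood at 67.49% (64.68 to 70.22) and 69.71% (66.8 to 72.5), a difference of -2.22 (-6.12 to 1.70), and at 68.08% and 73.42% after thinning, where the difference was -5.34 (-10.28 to -0.30). A smaller share of Lyve1-positive cells and less Lyve1 RNA per cell cannot be told apart at the lower edge. As a description of the genes that chose the members, the log2 ratios in members, SAR131675 against control diet, were -0.27 for Lyve1, -0.39 for Csf1r, -0.021 for C1qa and 0.092 for Adgre1.

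**Figure D4:**
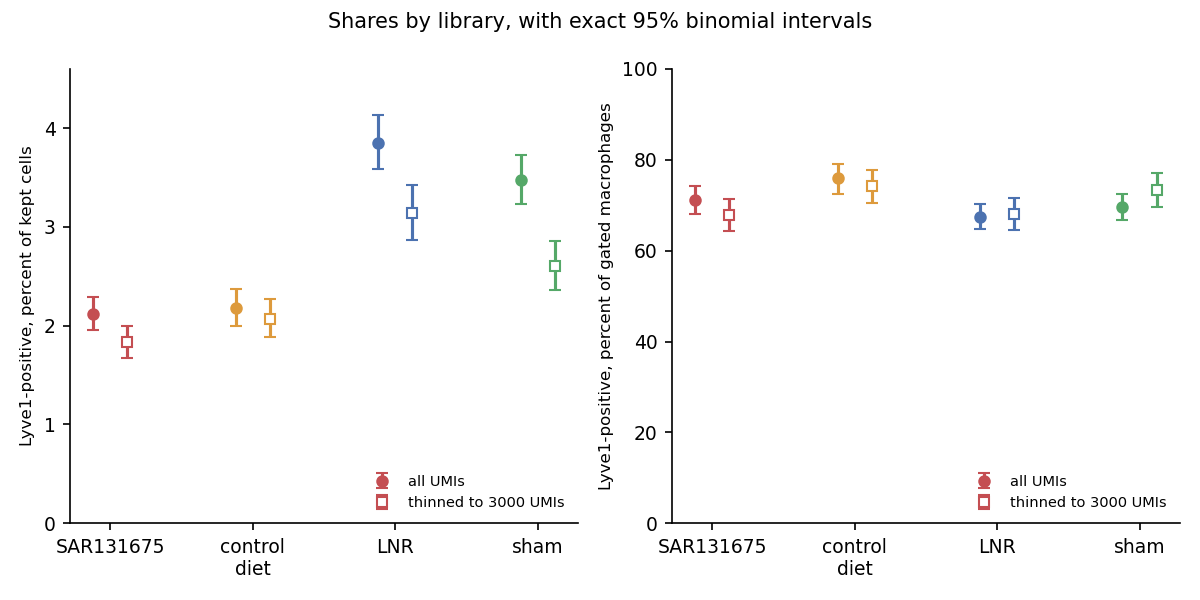
Lyve1-positive macrophages as a percent of all kept cells (left) and of gated macrophages (right) in each library, from all UMIs (filled) and after thinning to 3000 UMIs (open), with exact 95% binomial intervals as bars. Among gated macrophages the open points of SAR131675 and LNR lie below those of the control diet and sham.

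The diet comparison asks whether the members of mice fed a VEGFR3 inhibitor expressed other genes than those of mice on control chow. Among 10710 genes with at least 50 UMIs in the pair, 138 were past 2-fold higher with SAR131675 (1.29%) and 105 past 2-fold lower (0.98%). None of the 25 resident genes was past 2-fold and their median log2 ratio was -0.022, beside -0.024 over all genes. Folr2 stood at 798.9 against 766 CPM, F13a1 at 3064 against 3238 CPM and Timd4 at 99.6 against 106.5 CPM. The log2 ratios of these 3 genes lay between -0.096 and 0.060.

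Class II and bone genes were also within 2-fold. H2-Aa was at 187.4 against 160.6 CPM (log2 ratio 0.22, counting interval 0.081 to 0.36), Cd74 at 316.6 against 308.9 CPM and H2-Eb1 at 122.2 against 97.32 CPM, and none of 6 class II genes passed. Tnfrsf11a was at 172.1 against 165.2 CPM and Acp5 at 19.73 against 21.93 CPM, and none of 10 osteoclast genes passed. Ccr2, with 128 against 54 UMIs, and the fatty acid carrier Fabp5, with 1574 against 667 UMIs, lay at the limit with log2 ratios of 1.00 each.

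Of the macrophage lists, genes past 2-fold were all lower with SAR131675. Siglec1, the sialic acid receptor CD169, had 28 UMIs in 25 cells against 53 in 41 cells (log2 ratio -1.15, counting interval -1.88 to -0.47). Vegfa, the main growth factor of blood vessels, had 25 against 69 UMIs (-1.69, -2.43 to -1.03). Retnla, a protein of alternatively activated macrophages, had 631 against 1110 UMIs (-1.06), with 34.05% of the control diet UMIs in 1 cell. Cxcl13, Rsad2 and Ifit2 were also past the limit, with 59.62%, 48.89% and 53.95% of the control diet UMIs in 1 cell. Siglec1 and Vegfa were the calls in which no cell held as much as 20% of the UMIs in either library.

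Markers of other cells differed between the diet libraries. Krt1 and Krt10, keratins of the upper epidermis, were at 528.4 against 93.89 CPM (log2 ratio 2.49) and 1464 against 529.6 CPM (1.47) in members, beside the higher share of members with 3 keratinocyte markers given above. Of the other keratinocyte markers, Dsp was at 274.8 against 211.5 CPM, Krt14 at 269.6 against 278.3 CPM and Krt5 at 168.3 against 197.2 CPM, none past 2-fold. In Lyve1-negative macrophages Krt1 and Krt10 went the other way, at 307.9 against 1398 CPM and 1549 against 2289 CPM. Cells outside the gate had 2518 against 2713 CPM of Krt1 and 7351 against 9558 CPM of Krt10. All 4 tested globin genes were past 2-fold lower, with Hbb-bs at 68.27 against 278.3 CPM. Their part in the other differences was not tested. Without cells that carried 3 markers of another type 43 genes were past 2-fold higher and 84 lower.

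Many genes at the extremes of the diet comparison rested on single cells. The 8 highest were Msmp, Cytl1, Col10a1, Cadm2, Chad, Ecrg4, Mucl1 and Acan. Col10a1, the collagen of growth plate cartilage, had 114 UMIs with SAR131675, all in 1 cell, and 0 with the control diet, and Cytl1, a cytokine of cartilage, had 612 against 2, with 90.69% in 1 cell. The same barcode of 14944 UMIs was the richest for Acan, Ecrg4, Chad, Col10a1 and Cytl1. The 8 lowest were Coch, Bglap3, Rptn, Krt18, Tmem213, Krt19, Cldn7 and Car6. Krt18, a keratin of simple epithelium, had 8 against 213 UMIs in 10 control diet cells, and the 83 UMIs of Coch were in 1 cell. The richest cell held 52.11% to 100% of the UMIs among the 8 highest genes and 25.93% to 100% among the 8 lowest. Whether such barcodes held more than 1 cell was not tested.

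The LNR comparison asks whether removing the draining nodes went with other expression in the members. Among 9900 genes with at least 50 UMIs, 55 were past 2-fold higher with LNR (0.556%) and 109 past 2-fold lower (1.1%). None of 25 resident genes was past 2-fold, with a median log2 ratio of 0.13 beside 0.027 over all genes and 21 of 25 above 0. Folr2 was at 831.6 against 770.5 CPM, and Vsig4 at 327.4 against 255.2 CPM (log2 ratio 0.36, counting interval 0.24 to 0.48). None of 6 class II genes was past 2-fold, with H2-Aa at 155 against 152.3 CPM and Cd74 at 355 against 349.5 CPM.

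Of 13 inflammatory genes Il6 and Ptgs2 were past 2-fold higher with LNR and Acod1 lower, of 10 alternative activation genes Il10 and Arg1 were higher, and of 18 chemokines and receptors none was past 2-fold. Il6, an inflammatory cytokine, had 63 UMIs in 25 cells against 16 in 6 cells (log2 ratio 1.88, counting interval 1.11 to 2.81). Il10, a cytokine that dampens inflammation, had 52 in 32 cells against 14 in 8 cells (1.80, 0.96 to 2.80). Ptgs2, the inducible prostaglandin synthase, had 102 in 26 cells against 45 in 20 cells (1.11, 0.60 to 1.66), with 36.27% of the LNR UMIs in 1 cell. These genes were found in few members on either side. Il1b and Tnf were within 2-fold, with log2 ratios of 0.20 and 0.30.

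Lower with LNR were the lipid carrier Fabp5, with 1384 against 3941 UMIs (log2 ratio -1.57) and 33.32% of the sham UMIs in 1 cell, and Spp1, with 181 against 367 UMIs (-1.08). The monocyte-derived list gene Chil3 and Acod1 were also past the limit, in 4 and 5 sham cells. Cell division genes were below sham in 14 of 15, with a median log2 ratio of -0.63 and none past 2-fold. Mki67 had 308 against 487 UMIs (-0.72, counting interval -0.93 to -0.51) and Top2a 306 against 486 (-0.73, -0.94 to -0.52), while in Lyve1-negative macrophages their log2 ratios were -0.042 and -0.20. At equal depth, 3 or more division genes were found in 4.149% of LNR members (2.553 to 6.336) and 6.715% of sham members (4.508 to 9.559), whose intervals overlap.

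Markers of other cell types also differed between the LNR and sham libraries. The mural markers Rgs5, Myh11, Notch3 and Acta2 were past 2-fold higher with LNR and the neutrophil markers S100a8, S100a9 and Retnlg past 2-fold lower, and S100a8 had 191 against 2331 UMIs with 80.09% of the sham UMIs in 1 cell. The globin genes Hbb-bs, Hba-a1 and Hba-a2 (1567 against 489, 574 against 154 and 430 against 125 UMIs) and the mast cell gene Cma1 (40 against 12) were past 2-fold higher, and the lymphatic chemokine Ccl21a lower (7 against 80). Krt10 stood at 1989 against 1993 CPM. The part of these transcripts in the other differences was not tested.

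Single cells held most UMIs of the extreme genes here as well. The 8 highest with LNR were Krt84, Krt36, 2310079G19Rik, Spink12, Krtap3-3, Sprr2b, Arg1 and Wfdc18, and the same barcode of 17942 UMIs was the richest for 6 of them. Wfdc18 changed direction after thinning (log2 ratio -0.21) and without cells that carried 3 markers of another type (-0.71). Krt84 and Krt36, keratins of nail and hair, had 342 against 1 and 503 against 4 UMIs, with 99.42% and 99.8% in 1 cell. Arg1, the arginase of alternatively activated macrophages, had 69 against 7 UMIs, with 72.46% in 1 cell. The 8 lowest were Camp, Cfd, Ngp, Mucl1, Car3, Gm7298, Krt71 and Scd3. Camp, an antimicrobial peptide of neutrophil granules, had 2 against 756 UMIs, with 99.07% in 1 sham cell, and the fat cell product Cfd had 1 against 328, with 99.7%.

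Over all genes past 2-fold, 1 cell held at least 50% of the higher library's UMIs in 20 of 138 and 18 of 105 genes of the diet pair and in 13 of 55 and 36 of 109 of the LNR pair. Genes past 2-fold in the same direction in both experiments, which share no library, were Cytl1, Spink12, Mfap4, Krt6a, Rgs5, Notch3 and Krt16 on the higher side and Flg, Sprr1a, Cst6, Crct1, Flg2 and Pglyrp1 on the lower side. Most of these are known from the epidermis, cartilage or vessel walls. For Cytl1, Spink12, Krt16, Flg, Crct1 and Flg2, 1 cell held at least 50% of the higher library's UMIs in both pairs. In members with SAR131675 and control diet, Notch3, a receptor of mural cells, had 85 UMIs in 39 cells against 29 in 21 cells. With LNR and sham it had 58 against 27 UMIs. In Lyve1-negative macrophages its log2 ratios were -0.48 in the diet pair and -0.13 in the LNR pair. No gene of the macrophage lists was past 2-fold in the same direction in both. No share of all genes tested in both pairs is given, so neither result has a background to be read against.

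**Figure D5:**
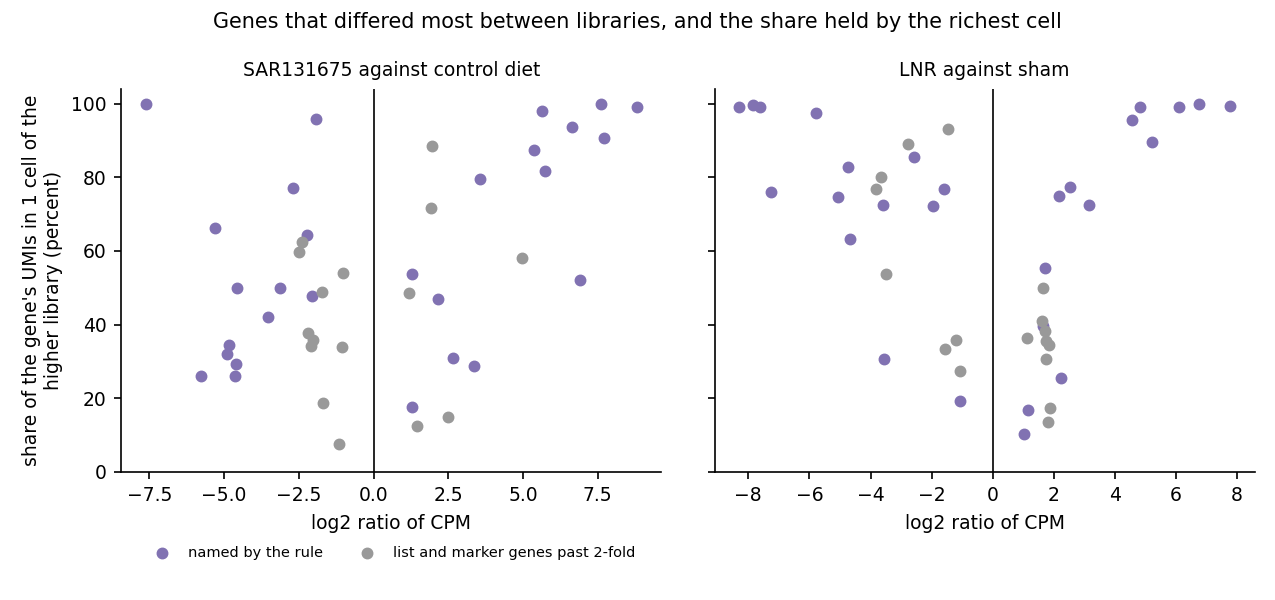
Percent of a gene's UMIs held by its richest cell in the higher library against the log2 ratio of CPM (0.5 UMIs added to each sum), for genes named by size or shared direction (purple) and other list and marker genes past 2-fold (grey), in the diet pair (left) and the LNR pair (right). Camp, Ngp and Cfd on the right and Msmp, Col10a1 and Coch on the left lie above 99 percent, whereas Krt19 and Bglap3 lie near 26 percent.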

How the data were processed

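The authors deposited, for each of the 4 libraries, a matrix of UMI counts (genes by barcodes) with no normalization. Per the file headers Cell Ranger 8.0.1 made the matrices of the diet pair and 6.1.2 those of the LNR pair, while the submitters' processing notes list 6.1.2 and the build GRCm39. Newer releases count intronic reads by default, so the conditions were compared only within an experiment. The interaction test among the flagged results is the exception, since it sets the class differences of the experiments against each other. Barcodes with 200 to 5500 genes, at most 30000 UMIs and at most 10% mitochondrial UMIs were kept. The members, the 16 program and 14 marker lists and the tests were chosen with earlier results of these data known. The named genes were the 12 highest and 12 lowest called differences with 1 sign in all 4 libraries and at least 200 UMIs, without rule or marker genes, the 8 highest and 8 lowest ratios of each pair (at least 50 UMIs), genes past 2-fold in both pairs, list genes and rule genes.

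CPM is a gene's UMIs per 1000000 UMIs of the class in a library, and 0.5 UMIs were added to each sum in ratios between single libraries. UMIs summed per library and class were fitted with edgeR 4.0.16 (R 4.3.3, TMM factors, quasi-likelihood, library block) and adjusted by Benjamini-Hochberg. Both classes of a library come from the same pool of digits, which is why the block is in the model. Shares have exact Clopper-Pearson intervals and ratios conditional exact intervals at 95% (scipy 1.17.1). The edgeR fit was tested on simulated counts in which libraries differed only in their total UMIs. That simulation does not cover library effects or the other steps. Alternatives were DESeq2 1.42.0, other UMI minimums, no block, each library left out, at least 3 Lyve1 UMIs, 3000 UMIs per cell, no cells with 3 of 5 markers of another type, no upper limits, 5 gate genes, other denominators, 1.5-fold and TMM factors. No doublet caller was run. Some genes of the lists are not reported here. Promoters came from RefSeq GRCm38.p6, and no coordinates were taken from the files.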

Additional observations from a re-analysis of the deposited data

Results flagged for a closer look

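Of 9 class II genes tested, 3 separated the classes more widely in the diet libraries than in the LNR and sham libraries. The difference between the 2 experiments in the log2 difference, Lyve1-positive minus Lyve1-negative, was -1.05 for H2-Aa (edgeR adjusted p = 0.0179), -1.07 for H2-Eb1 (edgeR adjusted p = 0.0367) and -1.04 for Cd74 (edgeR adjusted p = 0.00976). The other 6 did not pass, among them H2-Ab1 with -0.95 (edgeR adjusted p = 0.0659). Among the other listed genes the test passed with -0.76 for Fos (edgeR adjusted p = 0.00976), -0.79 for Egr1 (edgeR adjusted p = 0.0417), -0.81 for Atf3 (edgeR adjusted p = 0.0479) and -0.88 for Nfkbiz (edgeR adjusted p = 0.0179). This interaction passed in 36 of 12774 genes, and 1064 had an unadjusted p under 0.05. The test takes the 2 libraries of an experiment, treated and control, as its replicates, and those of LNR and sham may share mice. The experiments also differ in depth and Cell Ranger version, which cannot be told apart from the operations and diets. Mmp12 stood apart in the control diet library, with a log2 difference of -11.63 against -5.44 to -4.22 in the other libraries. Members of the control diet and sham libraries had 0 Mmp12 UMIs, so their values are set by the added count and are no measure of a fold. Chance flags about 1 in 20 such groups, and 1 cell held 70.3% of the Mmp12 UMIs of that library's Lyve1-negative macrophages.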

How the results depend on the processing

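Of the genes higher in Lyve1-positive cells, DESeq2 gave 371 (370 of them shared with the 615), no filter 1111, thinning 344 and no replicate block 33, with 62 lower without the block. Without each library in turn 366 to 422 genes were higher and 416 to 545 lower. The cause was not tested, other than that fewer libraries enter the fit when 1 is left out. Of 119 called genes that are named or listed, 111 kept their call with DESeq2, 41 without the block, 91 after thinning and 105 without cells that carried 3 markers of another type. Fabp4 turned to 0.48 (edgeR adjusted p = 0.693) without those cells and Bhlhe40 to 0.17 (edgeR adjusted p = 0.585) after thinning.

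The log2 ratio of shares of kept cells, SAR131675 against control diet, moved to -0.69 when macrophages that carried 3 markers of another type were removed and to 0.46 when cells with 3 keratinocyte markers were removed outside the gate only, where that of LNR against sham turned to -0.017. Removing the latter inside the gate too, a setting added after the data were seen, gave -0.12 and -0.018. After thinning the ratios were -0.18 for the diet pair and 0.27 for LNR against sham. With at least 3 Lyve1 UMIs the SAR131675 difference among gated macrophages was -9.21 percentage points. Genes past the fold with SAR131675 numbered 315 higher and 253 lower at 20 or more UMIs, 453 and 414 at 1.5-fold, 50 and 34 after thinning, 43 and 84 without cells that carried 3 markers of another type and 205 and 161 with no upper limits. With LNR they numbered 162 and 250, 262 and 328, 26 and 22 after thinning, and 19 and 24 without those cells. Wfdc18 turned to -0.21 after thinning and to -0.71 without those cells. Apart from these settings the cause was not tested, and 1 library per condition leaves counting error as the only error of the pairs.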

Other observations

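Genes past 2-fold in a pair in which no cell of the higher library held over 10% of the gene's UMIs there were picked out after their values were seen. They numbered 34 higher and 24 lower with SAR131675 and 17 higher and 15 lower with LNR. The lower library was not held to this limit. Cd209b, a lectin that binds sugars of microbes, had 316 UMIs in 62 SAR131675 members against 127 in 32 control diet members (log2 ratio 1.07, counting interval 0.77 to 1.38). The clock genes Per1 and Per2 had 120 against 208 and 35 against 73 UMIs (-1.03 and -1.29), and all cells outside the gate also had lower levels with SAR131675, 19.87 against 32.53 CPM of Per1 and 3.621 against 7.434 CPM of Per2. With LNR, Postn, a matrix protein of fibroblasts, had 488 against 195 UMIs (1.26), while the division gene Kif11 had 54 against 115 UMIs (-1.15). These values compare single libraries, and no cause was tested.

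Ighm, the heavy chain of immunoglobulin M, was chosen after its values were seen. It stood at 146.8, 150.8, 134 and 128.9 CPM in SAR131675, control diet, LNR and sham members and at 153.6, 111.9, 105.3 and 106.8 CPM in Lyve1-negative macrophages, against 10.22, 3.227, 3.165 and 14.32 CPM in cells outside the gate. Cd79a, the signaling partner of membrane immunoglobulin in B cells, was at 1.934, 0.9138, 0.9766 and 1.528 CPM in the same members, against 1.92, 1.79, 1.652 and 1.881 CPM outside the gate, and reached 10.8 CPM in Lyve1-negative cells of the SAR131675 library. Its partner Cd79b was at 2.708, 0.9138, 3.174 and 2.038 CPM in members, above the 0.4387, 0.4034, 0.7164 and 0.7853 CPM outside the gate.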
